A study of Bos taurus with 8 samples.

Results

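Genes of smooth muscle contraction and of pericytes were followed in 8 single-cell clones of bovine preadipocytes, 4 grown from intramuscular fat (IMF1 to IMF4) and 4 from subcutaneous fat (SF1 to SF4). The 10 genes were chosen by name: *ACTA2*, *ACTG2*, *TAGLN*, *CNN1*, *CALD1*, *SMTN*, *LMOD1*, *MYH11*, *CSPG4* and *MCAM*. All 10 were found among the 18871 named genes of the deposited table, and all 10 reached the total of 20 counts over the 8 clones that was required for testing, as 18339 genes did. The clones came from the stromal vascular fraction of adult Angus-cross steers, and the labels give no genetic change in either group. The libraries were read as growing cells below full confluence, as the study's methods state, although the series text places adipogenic induction before sequencing. Each clone descended from 1 cell of its own stromal vascular sample and was chosen among the clones able to form lipid droplets, partly by how well it grew and differentiated. The clones are therefore cultured, selected lines and not the cells of a tissue, and no source used here says which IMF and SF clones share a steer. The spread between clones covers both the clone and the animal. The p-values refer to that spread pooled over both groups, as the test takes it to be equal in IMF and SF. In the 10 genes it was wider among the SF clones.

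In smooth muscle, filaments of smooth muscle actin are pulled by smooth muscle myosin, and calponin, caldesmon and transgelin bind the actin filaments and stabilise or restrain them. The genes of this apparatus are switched on by serum response factor, which binds CArG boxes in their promoters together with myocardin or the myocardin-related factors. Pericytes, the cells that wrap capillaries, carry part of this programme together with surface proteins such as NG2 and CD146. Fibroblasts and stromal cells in culture can also make smooth muscle actin, transgelin and calponin in their stress fibres, and the markers are then not specific for smooth muscle.

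Between 19658612 and 29315019 reads were counted on genes per clone. Levels are given in CPM, the counts divided by a library total that was corrected with edgeR's TMM factors, and a level of 3 counts corresponded to between 0.0981 and 0.165 CPM. This floor covers counting error only. The pairs of clones within a group differed beyond sampling noise in their counts (chi-square per degree of freedom from 54.3 to 172 over 11443 genes). That sum also takes in genes with uneven levels among the IMF clones (see *MYOCD* below), so it cannot show that the clones differed in most genes. All 8 were kept as separate samples because the labels list each as its own clone. Both thresholds were passed by a gene with an adjusted p under 0.05 and a change of at least 1 in either direction on the log2 scale. Over all genes tested, 8.82% were past both thresholds in edgeR's quasi-likelihood test, 4.78% with a higher and 4.04% with a lower level in IMF.

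Of the 10 contractile and pericyte genes, 5 were lower and 2 were higher in the IMF clones past both thresholds (quasi-likelihood test of edgeR, p-values adjusted by Benjamini and Hochberg). In the fits without 1 clone, from 3 to 5 were lower and from 0 to 2 higher. When edgeR tested for more than 1 on the log2 scale, 0 passed. *CNN1*, *LMOD1*, *CSPG4*, *ACTA2* and *TAGLN* were lower in IMF, with means between 2.13 and 4.09 times as high in SF. *MCAM* and *MYH11* were higher in IMF, by 18.9 and 3.00 times in mean CPM. *CALD1* passed only the threshold on the adjusted p, and *ACTG2* and *SMTN* passed neither. The groups did not overlap in 7 of the 10 genes, against 32.1% of the genes tested. In 5 of the 7 the IMF clones were the lower group (14.1% of the genes tested), and in 2 they were the higher group (18.0%). The median log2 fold change (IMF over SF) was -1.28 for the 10 genes and -0.03 for all genes tested. Because these are bulk libraries, a smaller number of expressing cells in a clone and less RNA in each cell cannot be told apart.

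**Figure D1:**
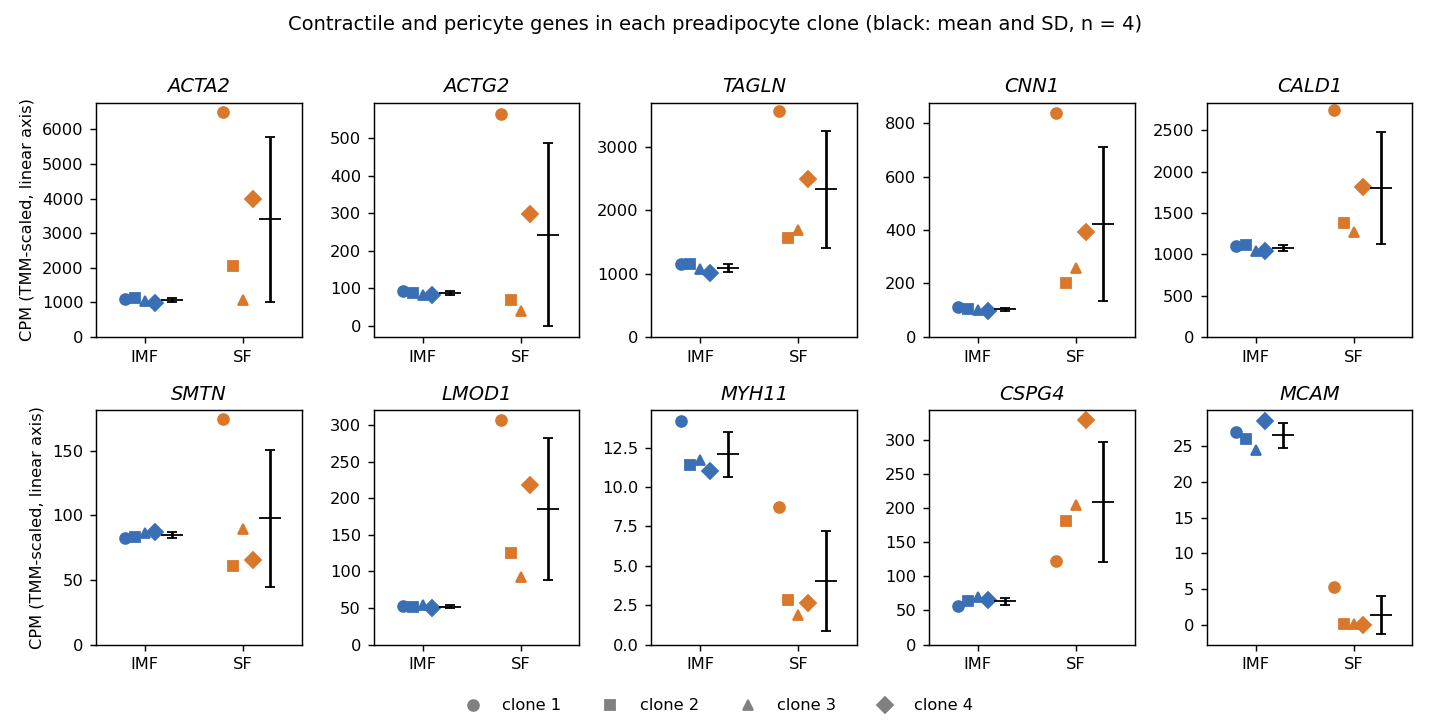
Levels of the 10 genes in each clone, in CPM on linear axes, with the mean and SD of the 4 IMF (blue) and 4 SF (orange) clones in black. The IMF clones lie close together in every gene, and SF1 (circle) is the highest SF clone in all genes but *CSPG4*.

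*ACTA2* encodes smooth muscle alpha-actin, the thin filament protein of vascular smooth muscle and of myofibroblasts (chromosome 26, 10626815 to 10644100 in ARS-UCD2.0). It had 1084, 1120, 1042 and 988 CPM in IMF1 to IMF4 and 6491, 2057, 1079 and 3977 CPM in SF1 to SF4. SF3 lay inside the range of the IMF clones, and SF1 was 6.02 times and SF4 3.69 times as high as SF3. The IMF clones had a mean of 1058 ± 56.8 CPM and the SF clones of 3401 ± 2386 CPM (SD, n = 4 each). The fitted log2 ratio of IMF to SF was -1.68, with a standard error of 0.48 and an adjusted p of 0.0333 in edgeR. In 9 of the 16 alternative fits *ACTA2* was no longer past both thresholds, 6 of them fits without 1 clone. Without SF1 its log2 fold change was -1.16 (adjusted p = 0.0563), and without SF4 it was -1.60 (adjusted p = 0.0718). Without any 1 of the 4 IMF clones the adjusted p was between 0.0722 and 0.0814. The log2 fold change stayed between -1.74 and -1.65 in those fits, near that of the main fit. With the clone number as a replicate block the adjusted p was 0.0889, and with limma-voom 0.0505.

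*ACTG2* encodes smooth muscle gamma-actin, the thin filament protein of visceral smooth muscle (chromosome 11, 10737086 to 10761240). It had 566, 68.7, 40.5 and 298 CPM in SF1 to SF4 and from 83.0 to 94.4 CPM in the IMF clones. SF1 and SF4 thus lay above every IMF clone, whereas SF2 and SF3 lay below every IMF clone. SF1 was 14.0 times as high as SF3, the widest ratio among the 9 genes with counts in every clone, and without SF1 the highest SF clone was 7.35 times the lowest. The difference between the groups did not pass the test against this spread (log2 fold change -1.48 ± 0.72 SE, edgeR adjusted p = 0.174). The log2 fold change was -0.64 without SF1 (edgeR adjusted p = 0.496) and -0.79 with limma-voom (adjusted p = 0.46). Annotated RefSeq genes overlap *ACTG2* (a pseudogene, LOC101909718, and LOC132346547), and their reads were not analysed here.

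Actin genes encode closely related proteins, and how reads shared between them were counted was not found in the sources used here. *ACTA1* and *ACTC1*, the skeletal and cardiac alpha-actins, were higher in IMF, with 101 ± 14.8 and 172 ± 13.4 CPM there (SD, n = 4) and at most 3 and 9 counts in any SF clone. *ACTB* and *ACTG1*, the cytoplasmic actins, did not pass both thresholds (log2 fold changes -0.30 and -0.42, adjusted p = 0.149 and 0.0224 in edgeR). In SF1, *ACTA2* had 126473 counts while *ACTA1* had 0 and *ACTC1* had 9. Scaled by gene length (TPM), *ACTA2* made up from 12.9% to 13.6% of the 6 actin genes in the IMF clones and 39.3%, 22.2%, 11.6% and 31.1% in SF1 to SF4. The share of *ACTG2* was from 1.65% to 1.90% in the IMF clones and 5.49%, 1.19%, 0.70% and 3.74% in SF1 to SF4. The ratio of *ACTA2* to *ACTG2* in TPM was from 7.18 to 7.90 in the IMF clones, 7.17 in SF1 and 8.34 in SF4, but 18.7 in SF2 and 16.6 in SF3. SF1 and SF4, the clones with the most smooth muscle actin, thus held the isoforms in nearly the ratio of the IMF clones.

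**Figure D2:**
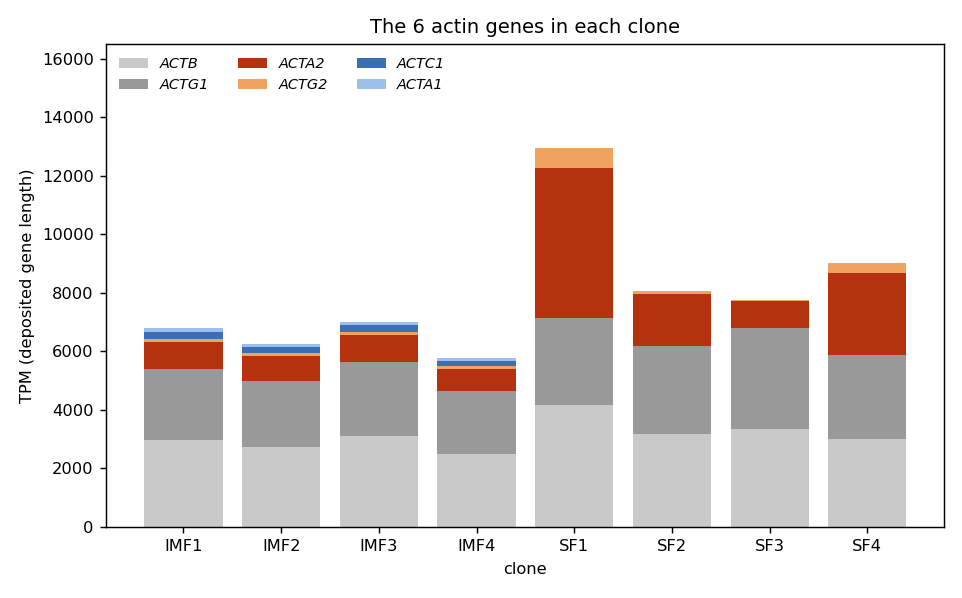
Stacked TPM of the 6 actin genes in each clone, with the bar starting at 0. Among the SF clones *ACTA2* (dark red) varies from 904 TPM in SF3 to 5099 TPM in SF1, while *ACTC1* and *ACTA1* (blue) are visible only in the IMF clones.

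*TAGLN* encodes transgelin (SM22-alpha), an actin-binding protein that appears early in smooth muscle differentiation (chromosome 15, 27889685 to 27894949). It had 1152, 1147, 1068 and 1016 CPM in IMF1 to IMF4 and 3574, 1567, 1697 and 2494 CPM in SF1 to SF4. No SF clone reached down to the IMF clones. The log2 fold change was -1.09 ± 0.26 (SE, adjusted p = 0.0152), just past the threshold on the fold. It was -0.93 (adjusted p = 0.0216) with scaling by the total count only, and -0.81 (adjusted p = 0.0100) without SF1, so that *TAGLN* was then not past both thresholds.

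*CNN1* encodes calponin 1, which binds actin and inhibits the ATPase of smooth muscle myosin (chromosome 7, 15883452 to 15891280). It had 112, 104, 101 and 96.4 CPM in IMF1 to IMF4 and 839, 202, 258 and 392 CPM in SF1 to SF4. The lowest SF clone was still above the highest IMF clone, and SF1 was 8.11 times as high as the mean of the IMF clones. *CNN1* had the lowest log2 fold change of the 10 genes, -2.03 ± 0.42 (SE, adjusted p = 0.00827). It stayed past both thresholds in each fit that left out 1 clone, with -1.46 as the value nearest to 0. Without SF1, the highest SF clone was 1.94 times the lowest, against 4.15 times with it.

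*CALD1* encodes caldesmon, which blocks the myosin-binding sites of actin and occurs in a long smooth muscle and a short general form (chromosome 4, 98449568 to 98681120). Counts per gene do not separate these forms. *CALD1* had from 1044 to 1118 CPM in the IMF clones and 2746, 1380, 1267 and 1813 CPM in SF1 to SF4, without overlap. The log2 fold change was -0.74 ± 0.23 (SE, adjusted p = 0.0481), under the threshold on the fold. The adjusted p was 0.0879 with the total count alone, and from 0.0886 to 0.106 without SF4 or any 1 of the IMF clones. Without SF1 the highest SF clone was 1.43 times the lowest, against 2.17 times with it. *SMTN* encodes smoothelin, a protein of contractile smooth muscle that binds actin filaments (chromosome 17, 69935077 to 69961377). It had 175, 60.9, 89.4 and 65.6 CPM in SF1 to SF4 and from 82.7 to 87.1 CPM in the IMF clones, so that SF1 and SF3 lay above and SF2 and SF4 below the IMF clones. Its log2 fold change was -0.20 ± 0.31 (SE, adjusted p = 0.681) and became 0.24 (adjusted p = 0.230) without SF1, where the highest SF clone was 1.47 times the lowest, against 2.87 times with it.

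*LMOD1* encodes leiomodin 1, which nucleates actin filaments in smooth muscle (chromosome 16, 80548456 to 80575804). It had from 49.4 to 53.5 CPM in the IMF clones and 307, 125, 91.9 and 218 CPM in SF1 to SF4. Every SF clone was above every IMF clone (log2 fold change -1.85 ± 0.34 SE, adjusted p = 0.00541), and *LMOD1* was past both thresholds in each fit that left out 1 clone. A lncRNA, LOC112441886, overlaps it in RefSeq and was not analysed here.

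*MYH11* encodes smooth muscle myosin heavy chain, the motor of the apparatus and its most specific marker (chromosome 25, 14124960 to 14252429). It was higher in IMF, unlike *TAGLN*, *CNN1* and *LMOD1*. *MYH11* had 296, 348, 258 and 232 counts in IMF1 to IMF4 and 170, 57, 46 and 48 counts in SF1 to SF4. Scaled for depth, the IMF clones had 12.1 ± 1.44 CPM and SF1 to SF4 had 8.73, 2.85, 1.87 and 2.65 CPM. The groups did not overlap, and SF1 was 3.06 times as high as the next SF clone. Without SF1 the highest SF clone was 1.53 times the lowest, against 4.67 times with it. The log2 fold change was 1.59 ± 0.45 (SE, adjusted p = 0.0314). *MYH11* was no longer past both thresholds in 7 of the 8 fits without 1 clone, each but the fit without SF1. In those 7 fits the adjusted p-values were from 0.0593 to 0.0766 and the log2 fold changes from 1.31 to 1.63. *NDE1* overlaps *MYH11* in RefSeq and had from 39.4 to 44.0 CPM in the IMF clones and from 30.6 to 44.7 CPM in the SF clones, so that its groups overlapped.

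The thick filament gene was thus rare beside the thin filament genes. In TPM, which sets genes of different length on a common scale, *MYH11* had a mean of 3.04 in IMF and 0.986 in SF, against 858 and 2651 for *ACTA2*, 1365 and 2824 for *TAGLN*, 279.5 and 457 for *CALD1*, 118 and 467 for *CNN1*, and 34.6 and 120.1 for *LMOD1*. *TAGLN* had the highest mean TPM of the 10 genes in both groups, and *MYH11* and *MCAM* the lowest in SF. In CPM, *ACTA2*, *TAGLN* and *CALD1* had a higher mean than at least 99.6% of the genes tested in each group, whereas *MYH11* lay above 53.2% of them in IMF and 35.5% in SF. The 10 genes together took from 0.352% to 0.400% of the counts of an IMF clone and 1.41%, 0.565%, 0.469% and 0.827% in SF1 to SF4.

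*CSPG4* encodes NG2, a transmembrane proteoglycan of pericytes and of other immature mesenchymal cells (chromosome 21, 33182725 to 33218500). It had 56.9, 64.1, 69.1 and 65.4 CPM in IMF1 to IMF4 and 122, 181, 204 and 330 CPM in SF1 to SF4. All SF clones were above all IMF clones (log2 fold change -1.71 ± 0.27 SE, adjusted p = 0.00242), and *CSPG4* was past both thresholds in each fit that left out 1 clone. Without SF4 the highest SF clone was 1.68 times the lowest, against 2.7 times with it. Among the SF clones its order was not that of the contractile genes, as SF1, the highest clone for the other 9 genes, was the lowest for *CSPG4*.

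*MCAM* encodes CD146, an adhesion molecule of pericytes, smooth muscle and endothelium (chromosome 15, 29886833 to 29894588). It had 562, 796, 538 and 598 counts in IMF1 to IMF4 and 104, 3, 3 and 0 counts in SF1 to SF4. In CPM these were from 24.4 to 28.5 in the IMF clones, 5.34 in SF1, and at or under the floor of 3 counts in the other SF clones. The log2 fold change was 4.26 ± 1.07 (SE, adjusted p = 0.0209), a fitted value that depends on SF1, since it was 8.04 without that clone. The adjusted p was 0.0520 without IMF3. Against SF4, with 0 counts set to the floor of 3 counts, the IMF mean was at least 160-fold higher. Against the 3 counts of SF2 it was 176 times as high (exact Poisson 95% interval 60.3 to 854, counting error only), and against those of SF3 217 times (74.4 to 1054). *CSPG4* and *MCAM*, which both mark pericytes, thus differed in opposite directions between the groups, and of the 4 SF clones SF1 had the most *MCAM* and the least *CSPG4*.

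**Figure D3:**
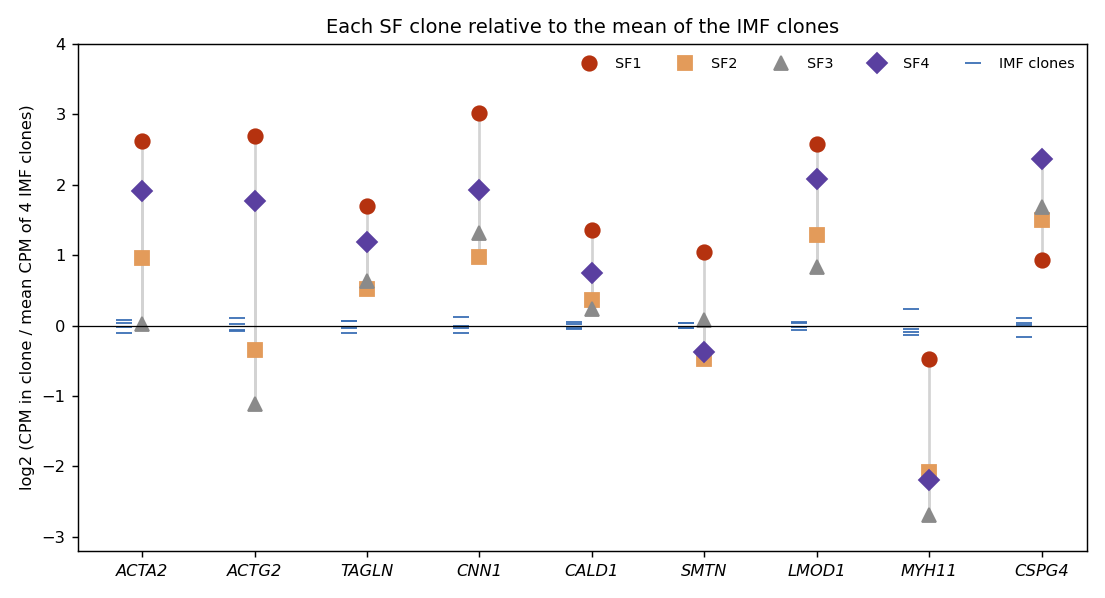
Log2 ratio of each SF clone to the mean of the 4 IMF clones, from CPM, for the 9 genes other than *MCAM*, which has 0 counts in SF4. Blue ticks show the IMF clones. SF1 and SF4 lie above the other SF clones in *ACTA2*, *ACTG2*, *TAGLN*, *CNN1*, *CALD1* and *LMOD1*, and the order differs in *SMTN*, *MYH11* and *CSPG4*.

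The spread among the SF clones was wider than that among the IMF clones in all 10 genes. In the 8 genes with a mean of at least 10 CPM in SF, the highest SF clone was from 2.17 times (*CALD1*) to 14.0 times (*ACTG2*) the lowest, with a median of 3.11, against a median of 1.34 over the 9216 genes with that level. The SD of log2 CPM among the SF clones was 1.78 for *ACTG2*, 1.13 for *ACTA2*, 0.899 for *CNN1* and 0.782 for *LMOD1*. It was 0.693 for *SMTN*, 0.591 for *CSPG4*, 0.549 for *TAGLN* and 0.502 for *CALD1*. Each of the 8 lay above the median of all genes (0.186), *CALD1* at percentile 89.9 and *ACTG2* at percentile 99.5. Among the IMF clones the coefficient of variation ran from 2.7% (*SMTN*) to 11.9% (*MYH11*), and the median SD of log2 CPM was 0.0865 for the 10 genes and 0.0879 for the 9263 genes with a mean of at least 10 CPM there. The IMF clones were thus about as even in these genes as in others. Of the 8642 genes with that level in both groups, 76.4% were more spread among the SF clones than among the IMF clones, and so were all 8 of the contractile and pericyte genes among them.

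SF1 was the highest SF clone in 9 of the 10 genes, both with TMM factors and with the total count alone, whereas it was the highest in 27.4% of the 9216 genes with a mean of at least 10 CPM in SF. In 6 of the 10 genes, *ACTA2*, *ACTG2*, *TAGLN*, *CNN1*, *CALD1* and *LMOD1*, SF1 came first and SF4 second, an order that 10.9% of the same 9216 genes had. Of the 8 of the 10 genes that reach that level, SF1 was the highest in 7 and was followed by SF4 in 6. The spread did not rest on SF1 alone. Without SF1, which was left out of this calculation after the data had been seen, the median SD of log2 CPM of the 8 genes was 0.47 (from 0.27 to 1.49), against 0.143 over 9178 genes, and each of the 8 was above that median. These 10 genes share their libraries and part of their regulation, so the counts describe these 4 clones and are not 10 independent observations.

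**Figure D4:**
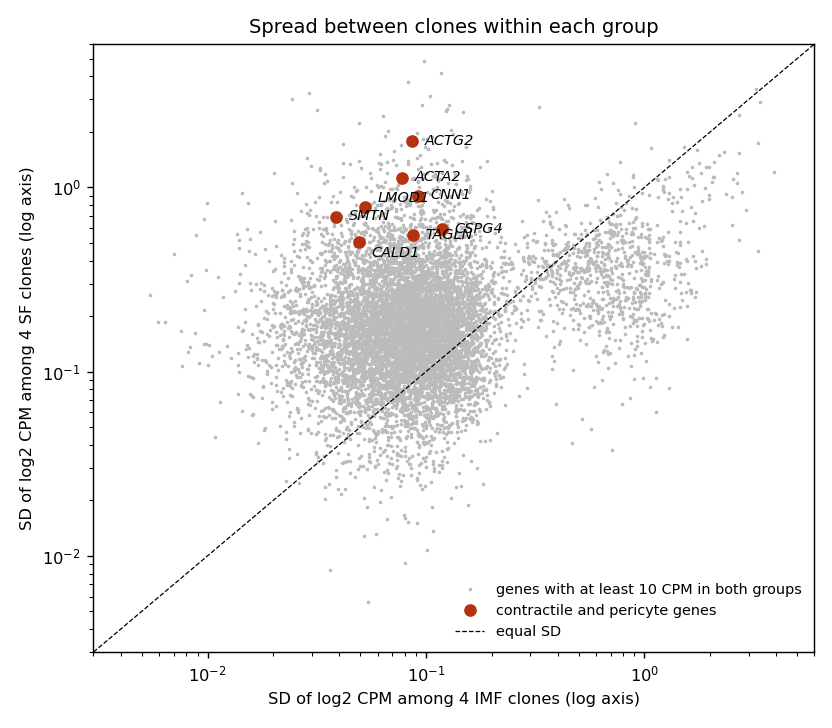
SD of log2 CPM among the 4 SF clones against that among the 4 IMF clones, both on log axes, for 8642 genes with a mean of at least 10 CPM in both groups (grey) and the 8 contractile and pericyte genes among them (red). All 8 lie above the line of equal SD. A second cloud at the right holds genes with an uneven level in the IMF clones, and none of the 8 lies in it.

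Other genes of the stress fibre and of smooth muscle contraction were taken from a list of 22, of which 21 were tested and *MYLK* was not analysed here. Of these, 5 were lower and 1 was higher in IMF past both thresholds in edgeR, and 9 lower and 2 higher genes had an adjusted p under 0.05, which 25.8% of all genes tested had in either direction. *ACTN1*, the actin crosslinker alpha-actinin 1, averaged 481 ± 5.12 CPM among the IMF and 1247 ± 425 CPM among the SF clones (SD, n = 4 each), with a log2 fold change of -1.38 (adjusted p = 0.00229). *MYL9*, the regulatory light chain of smooth muscle and nonmuscle myosin, had a log2 fold change of -1.34 (adjusted p = 0.00328), *PDLIM5* of -1.04 and *CNN2*, calponin 2, of -1.32. *SYNPO2*, the actin-bundling protein synaptopodin 2, averaged 54.7 ± 2.59 CPM among the IMF and 159 ± 53.5 CPM among the SF clones (log2 fold change -1.54, adjusted p = 0.00167). *MYH10*, nonmuscle myosin IIB, was higher in IMF (log2 fold change 1.07, adjusted p = 0.00260), whereas *MYH9*, nonmuscle myosin IIA, had a log2 fold change of -0.78 (adjusted p = 0.0153), under the threshold on the fold. The median log2 fold change of the 21 genes was -0.58.

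The order of the SF clones in this list was close to that of the 10 genes. SF1 was the highest SF clone in 16 of the 21 genes, and SF1 was followed by SF4 in 15 of them. The median SD of log2 CPM of the 20 genes with at least 10 CPM in SF was 0.393 among the SF clones and 0.0669 among the IMF clones, so that the spread among the SF clones was smaller than in the 10 genes. Summed over the list, the level was from 12340 to 12830 CPM in the IMF clones and 29340, 15920, 16770 and 20250 CPM in SF1 to SF4.

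**Figure D5:**
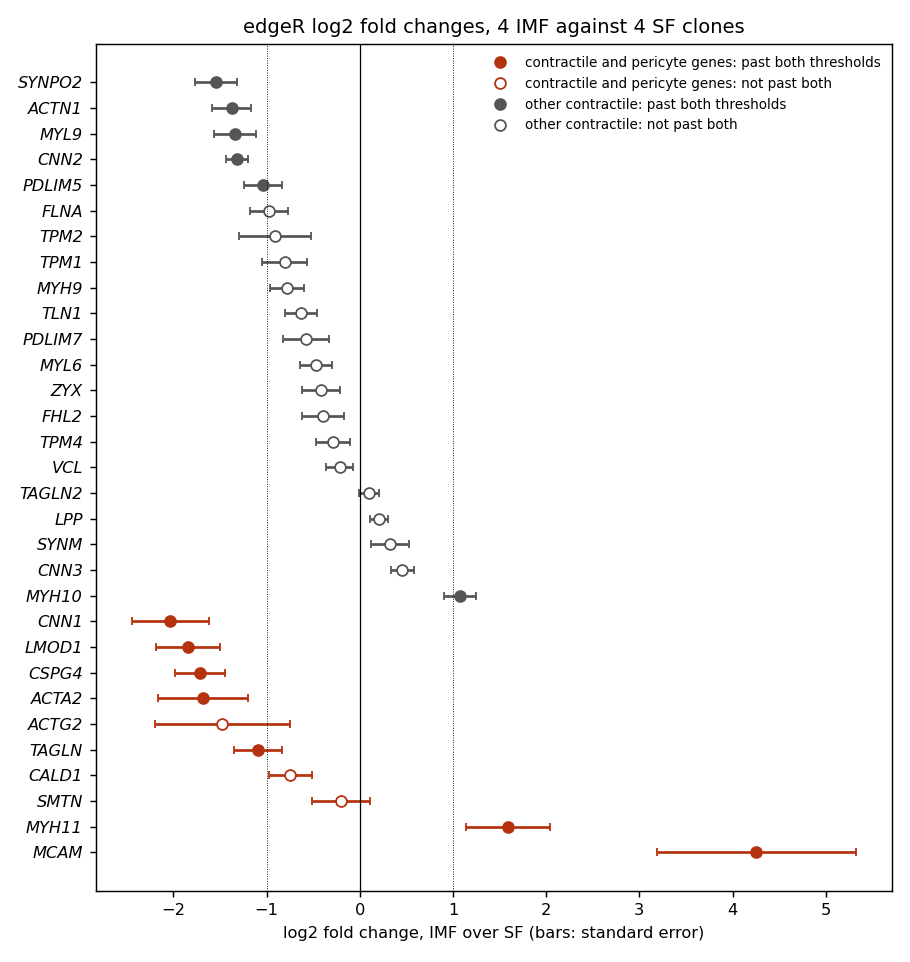
Log2 fold change (IMF over SF) with its standard error from edgeR for the 10 contractile and pericyte genes (red) and 21 other contractile and stress fibre genes (grey). Filled points are past both thresholds, and dotted lines mark a log2 fold change of 1 in each direction. *MCAM*, *MYH11* and *MYH10* are the filled points on the right of 0.

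*SRF*, serum response factor, averaged 57.5 ± 2.34 CPM among the IMF and 62.4 ± 11.1 CPM among the SF clones (SD, n = 4 each), and its log2 fold change was -0.12 (edgeR adjusted p = 0.523). *MYOCD*, myocardin, the coactivator that smooth and cardiac muscle use, had 529, 137, 206 and 784 counts in IMF1 to IMF4 and 320, 340, 254 and 286 counts in SF1 to SF4 (log2 fold change 0.36, adjusted p = 0.692). Its level differed more among the IMF clones (SD of log2 CPM 1.38) than among the SF clones (0.335), unlike each of the 10 genes. *MYOCD* thereby belonged to 833 of the 8642 genes with at least 10 CPM in both groups whose SD of log2 CPM among the IMF clones was over 0.3. Whether such uneven entries measure the named gene was not tested, and the result for *MYOCD* carries that doubt. *MRTFB* was uneven in the same way, with 9.94 to 51.2 CPM in the IMF clones and 40.3 to 61.4 CPM in the SF clones (log2 fold change -0.63, adjusted p = 0.303). The table also lists *MKL1* and *MKL2*, older names of *MRTFA* and *MRTFB*, which were looked up after the data had been seen. *MKL1* had from 85.0 to 93.0 CPM in the IMF clones and 113, 79.5, 84.5 and 83.0 CPM in SF1 to SF4. *MKL2* had from 40.6 to 47.0 CPM in the IMF clones and from 24.4 to 32.3 CPM in the SF clones, without overlap (edgeR adjusted p = 0.0022). Unlike *MRTFB*, it was even among the IMF clones (SD of log2 CPM 0.0886, against 1.00). The entries *MKL2* and *MRTFB* thus had log2 fold changes of opposite sign, 0.63 and -0.63, and neither can be taken as the level of that coactivator.

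Of 10 regulators tested in all, 3 were higher in IMF and 0 were lower past both thresholds (3 were lower at an unadjusted p under 0.05, and DESeq2 and limma-voom also called 0). Of the 3, 2 were left without SF3, SF4 or any 1 of the IMF clones, and 1 when edgeR tested for more than 1 on the log2 scale. The higher ones were *HEYL* and *HEY2*, repressors downstream of Notch, and *GATA6*, a factor of vascular smooth muscle. *HEYL* had 17.1 ± 0.486 CPM in IMF and 77, 7, 0 and 11 counts in SF1 to SF4 (log2 fold change 3.82, adjusted p = 0.0169). *GATA6* had 7.27 ± 0.372 CPM in IMF and 66, 5, 10 and 29 counts in SF1 to SF4 (log2 fold change 2.37, adjusted p = 0.0329). SF1 was the SF clone with the most of both. *HEY2* had 3.57 ± 0.483 CPM in IMF and 6, 11, 2 and 2 counts in SF1 to SF4, with SF2 as the highest SF clone. *MRTFA* under that name and *NKX3-2* were not analysed here.

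Among the genes that control contraction, 1 of 12 was higher in IMF and 0 were lower past both thresholds. Over all genes tested these shares were 4.78% and 4.04%. DESeq2 and limma-voom also called 0 lower, while limma-voom called 2 higher, and 2 passed without SF1. At an adjusted p under 0.05 alone, 2 were higher and 2 lower in edgeR, and 5 were lower in DESeq2 (5 were lower in edgeR at an unadjusted p under 0.05). The higher gene was *KCNMB1*, the smooth muscle subunit of the large-conductance potassium channel, with 2.79 ± 0.262 CPM in IMF and 0, 0, 2 and 0 counts in SF1 to SF4, at or under the floor in each. *PPP1R12A*, the targeting subunit of myosin phosphatase, had a log2 fold change of -0.61 (adjusted p = 8.13e-04). *RHOA* was also lower (-0.355, adjusted p = 0.0104) and *PPP1R14B* higher (0.84, adjusted p = 0.00158), both under the threshold on the fold.

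The clones were also compared with markers of the cell types that carry these genes. Of 7 genes that define differentiated smooth muscle, *CNN1*, *LMOD1* and *SYNPO2* were lower and *MYH11* and *KCNMB1* higher in IMF. *ACTG2* and *MYOCD*, the other 2, did not pass the test. Of 15 other pericyte markers, 9 were tested, and *RGS5*, *KCNJ8*, *NOTCH3*, *COX4I2*, *STEAP4* and *ENPEP* were not analysed here. *ANPEP*, aminopeptidase N (log2 fold change -2.62, adjusted p = 8.12e-05), and *TBX18*, a factor of mural cells (-1.08, adjusted p = 0.0206), were lower and *HEYL* was higher in IMF. DESeq2 called 2 higher and 2 lower, and limma-voom 3 higher and 1 lower. Of the 3 calls in edgeR, 2 were left without IMF1, IMF2 or IMF3. The median log2 fold change of the 9 was 0.54. *FOXD1* and *FOXC1*, transcription factors of mural cells and their precursors, had every IMF clone above every SF clone without passing the test (log2 fold changes 2.50 and 1.24, edgeR adjusted p = 0.0724 and 0.170). Such an order was found in 18.0% of the genes tested. For *FOXC1* the groups barely parted, with 7.245 CPM in IMF1 and 7.186 CPM in SF1. *PDGFRB*, the receptor that pericytes and fibroblasts share, averaged 210.1 ± 11.1 CPM among the IMF and 236 ± 63.0 CPM among the SF clones (edgeR adjusted p = 0.573). *ABCC9*, *HIGD1B* and *NDUFA4L2*, markers of capillary pericytes, had means under 5 CPM in both groups.

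Genes of myofibroblasts, in which *ACTA2* is also made, were lower in IMF past both thresholds in 4 of 11 cases and higher in 0. DESeq2 called 0 higher and limma-voom 1. At an adjusted p under 0.05 alone, 1 gene was higher in edgeR, *CTHRC1*, with a log2 fold change of 0.99 (adjusted p = 0.0313). It had from 65.7 to 76.7 CPM in the IMF clones and from 17.65 to 53.3 CPM in the SF clones, without overlap. The lower ones were *COL1A1*, *TNC*, *POSTN* and *ITGA11*, and *FN1* was not analysed here. *POSTN*, periostin, had 127 counts in SF1 and from 2920 to 7661 in the other SF clones, and *TNC*, tenascin C, had 104298 counts in SF1 and from 249960 to 286811 in the other SF clones. SF1, the clone with the most smooth muscle actin, thus had the least of both, and in *POSTN* it lay, with 6.52 CPM, under every IMF clone (from 8.52 to 14.0 CPM), so that the groups overlapped. SF1 was the highest SF clone in 2 of the 11 genes.

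Markers of skeletal muscle and of endothelium were higher in IMF, as *MCAM* and *MYH11* were. All 10 skeletal muscle markers were higher in IMF, with a summed level from 814 to 935 CPM in the IMF clones and from 2.50 to 25.7 CPM in the SF clones, and 4 of the 10 had at most 3 counts in every SF clone. Of these calls, 9 were left with the replicate block and without SF3 or any 1 of the IMF clones. Of 10 endothelial markers, 9 were higher in IMF, with a summed level from 321 to 364 CPM there and from 27.3 to 38.2 CPM in SF, where *KDR* and *SELE* were at 0 counts in each clone and *CLDN5* alone averaged 31.3 CPM. Their part in the levels of *MCAM* and *MYH11* was not tested. Of 5 leukocyte markers tested (*CD163*, *LYZ* and *CSF1R* were not analysed here), *CD14* was higher and *CD3E* lower in IMF, with summed levels from 17.3 to 39.7 CPM in IMF and from 45.7 to 78.3 CPM in SF. Most of these sums came from *CD3E* and *PTPRC*, and *PTPRC* was as uneven among the IMF clones as *MYOCD* (from 1.90 to 19.2 CPM, SD of log2 CPM 1.39), so that the sums carry the same doubt. *CD3E* was also uneven there (from 3.45 to 13.9 CPM, SD of log2 CPM 0.878), and of the 2 leukocyte calls 1 was left without IMF3, SF1, SF2 or SF4, and 0 when edgeR tested for more than 1 on the log2 scale. The preadipocyte and stromal markers held from 11980 to 12570 CPM in the IMF clones and from 18600 to 23430 CPM in the SF clones, and of 10 markers *CD34* was higher and *PPARG* lower in IMF. Most of that sum was *COL1A2*, a chain of type I collagen, with from 10180 to 10740 CPM in the IMF and from 16480 to 21550 CPM in the SF clones, and the median log2 fold change of the 10 markers was -0.0006.

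The genes whose pattern over the 8 clones was most like that of a contractile gene were found by the root mean square difference in log2 CPM, each gene centred on its own mean, among 9130 genes with a name other than a LOC number whose mean reached 10 CPM in IMF or SF. The 5 nearest to *ACTA2* were *LTBP1* (0.176), *JPH2* (0.280), *MRVI1* (0.340), *INHBA* (0.340) and *FHL1* (0.341), where the median gene had 1.02. *LTBP1* encodes a latent TGF-beta binding protein and *INHBA* the activin A subunit. *LTBP1* had 1311, 445, 328 and 573 counts in SF1 to SF4 and a mean of 10.2 CPM in IMF. The 5 nearest to *CNN1* were *PROS1* (0.144), *GFRA4* (0.184), *CHSY3* (0.251), *PTGDS* (0.254) and *AGAP2* (0.255). The genes nearest to *MYH11* were *FXYD6* (0.227), *DKKL1* (0.249), *CARHSP1* (0.286), *SKP2* (0.306) and *PDK3* (0.307). For *MYH11* the median gene had 1.10, as for *CNN1*. For *MCAM*, where the median gene had 3.42, the nearest were *IGF2* (0.616), *MX1* (0.737), *PLXNA4* (0.828), *APOA1* (0.993) and *SHANK3* (1.10). *IGF2*, which encodes insulin-like growth factor 2, had 99, 4, 0 and 2 counts in SF1 to SF4 and 24.9 ± 1.57 CPM in IMF. The 5 genes nearest to *MCAM*, with *FXYD6* and *DKKL1*, reached 10 CPM only in IMF, and *INHBA*, *GFRA4*, *CHSY3*, *PTGDS* and *AGAP2* only in SF. All were chosen by their likeness over these same clones.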

How the data were processed

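RNA-seq was available for 8 clones, 4 IMF and 4 SF. The authors deposited raw read counts per gene and clone, made with Trimmomatic 0.39 and featureCounts 2.0.2 on ARS-UCD2.0. The methods name HISAT2 as aligner and the submitters' processing notes STAR 2.7.11a. The methods describe a non-stranded kit and the labels a dUTP protocol, so reads of overlapping genes may be shared. The deposited fold changes, p-values and group means were not used. A row without a gene name (at most 0.0209% of a clone's counts) was left out, and 17 gene names had been turned into dates. The genes and lists were chosen with earlier results of these data known.

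The 18339 genes that reached 20 counts over all clones went into edgeR 4.0.16 under R 4.3.3 (TMM, two-sided quasi-likelihood test, Benjamini-Hochberg adjustment over all of them), and the test was tried on simulated counts. Log2 CPM used a prior count of 2. TPM used the deposited gene length. Named genes were the 10 genes, the 5 nearest in pattern to *ACTA2*, *CNN1*, *MCAM* and *MYH11*, and, per list, up to 4 genes past both thresholds with the highest mean, with the actins, *SRF*, *MYOCD* and the myocardin-related factors. Others were named after their values were seen. Coordinates are from RefSeq. Alternatives used DESeq2 1.42.0, limma 3.58.1, other scalings and filters, a replicate block and fits without 1 clone. Protein and promoter sequences were not used here. Python 3.11.15 made tables and figures.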

Additional observations from a re-analysis of the deposited data

Results flagged for a closer look

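In 20 groups of 4 clones, one for each of the 10 genes in IMF and in SF, the gap between an extreme clone and its neighbour was compared with the range of the group by Dixon's criterion, which chance meets in about 1 of 20 groups. SF1 stood apart from the other SF clones in *MCAM* (5.34 CPM, against at most 0.150 CPM in SF2, SF3 and SF4) and in *MYH11* (8.73 CPM, against 1.87 to 2.85 CPM). In both genes SF1 lay between the other SF clones and the IMF clones.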

How the results depend on the processing

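Of the 10 contractile and pericyte genes, 7 passed both thresholds in edgeR (5 lower and 2 higher in IMF), and from 6 to 7 passed with RLE size factors, the total count alone, DESeq2, limma-voom, both other filters and the replicate block. Testing for more than 1 on the log2 scale (edgeR's glmTreat) left 0 of them, 0 lower and 0 higher (4 lower and 2 higher at an unadjusted p under 0.05), and 23 of 39 other listed genes, none of them among the 6 other contractile genes (4 lower at an unadjusted p under 0.05). Without 1 clone, from 4 to 6 genes passed (4 without IMF3), from 3 (without SF1) to 5 lower and from 0 (without IMF3) to 2 higher, and from 36 to 41 of the other listed genes. The direction of each gene held in all 16 alternatives except that of *SMTN*, whose log2 fold change ran from -0.37 to 0.24 in the fits without 1 clone and was positive without SF1. The total count alone moved the median over all genes from -0.03 to 0.12 on the log2 scale and the share of higher calls among them from 54.2% to 66.7%, and among the 10 genes it left 4 lower and 2 higher. IMF and SF clones share numbers, and the deviations of same-numbered clones correlated by -0.0093 to 0.139. Clones of different number correlated by -0.1055 to 0.1088. Such low values cannot tell whether clones share a steer, and the numbers were not taken as pairs in the main fit. With the clone number as a replicate block 6 genes passed, and *ACTA2* did not (log2 fold change -1.38). With 4 clones per group, spreads are imprecise, and in SF2 to SF4 *MCAM* is at the limit of the depth.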
